A study of Mus musculus with 2 samples.

Results

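The clustered protocadherins are cell-surface adhesion proteins encoded by 3 gene clusters in tandem on mouse chromosome 18. The members were all protein-coding genes of GENCODE M21 on that chromosome whose symbols begin with Pcdha, Pcdhb or Pcdhg, which gave 57 of the 21938 protein-coding genes of the annotation. They comprised 12 alternate and 2 C-type genes of the alpha cluster, 22 beta genes, 12 gamma A genes, 6 gamma B genes and 3 C-type genes of the gamma cluster. The annotation lists 2 genes under the symbol Pcdha11, and the upstream of them is called Pcdha10 here, its RefSeq name. Pcdhgb8, annotated as a polymorphic pseudogene, is the 1 gene of these symbols left out.

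Open chromatin had been mapped by DNase-seq, in which nuclei are treated with DNase I and the ends left in accessible DNA are sequenced. There was 1 group with no second condition: adrenal glands of female mice aged 10 days, first-generation offspring of a cross of C57BL/6J and CAST/EiJ (strain B6CASTF1/J), in 2 biological replicates. Each replicate carries a label of 3 females, and no treatment or engineered allele is named. All comparisons are therefore between the replicates, among the members, or between the members and other genes, and members are not replicates of a condition.

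Each member of the alpha and gamma clusters has a first exon of its own with its own promoter, which is spliced to constant exons shared by the whole cluster, whereas beta genes have no constant exons. In neurons, where the family is best known, individual cells express different sets of these isoforms, and the resulting combinations of surface proteins let a neuron tell its own branches from those of others. In most alternate promoters the choice is known to involve the insulator protein CTCF, cohesin and the loss of DNA methylation, together with distant enhancers described in mouse brain, while the C-type genes are regulated differently and are expressed more uniformly.

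Replicate 1 had 98813 peaks in the stricter list and 159343 in the longer list, against 55135 and 93845 in replicate 2. Every peak of the stricter lists held a base at a false discovery rate (FDR) of at most 0.001, and every peak of the longer lists a base at 0.05 or below. Peak heights are the authors' values, a signal given per peak, with medians of 1.04 in replicate 1 and 1.06 in replicate 2 for the stricter lists. Read totals were not used here. Each sample's heights came in whole steps, and if 1 step were 1 sequenced tag, each height would carry a counting error. For member heights of the stricter lists this error ranged from 2.84% for Pcdhgc3 to 10.9% for Pcdhga6, both in replicate 1. It was not computed for heights of the longer lists, the lowest of which hold fewer steps and would have a larger error.

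The labelled tissue was checked at promoters of marker genes. Among 7 adrenal cortex markers, 4 had a peak in both replicates, the highest of them in replicate 1 being Cyp11a1 (3.74 in replicate 1 and 1.87 in replicate 2), which starts steroid synthesis. Among 9 chromaffin cell markers, 5 did, led by the vesicular transporter Slc18a1 (13.7 and 6.85). The steroid enzyme gene Hsd3b1 and the adrenaline-forming enzyme gene Pnmt had no promoter peak in either replicate. Of 7 brain neuron markers, 6 also had a peak in both, at heights between 0.535 (Tbr1) and 2.54 (Syn1) in replicate 1. A promoter peak at a marker was thus not restricted to adrenal cell types in these samples, and the cell types behind the protocadherin signal below cannot be told apart.

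Few of the clustered protocadherin promoters had a peak that both replicates shared. Within 1 kb of any annotated start, 3 of 57 members (5.26%) had a peak of the stricter list that overlapped between replicates by at least 1 bp, against 63.6% of all protein-coding genes. These 3 were all C-type genes: Pcdhac1, Pcdhac2 and Pcdhgc3. In bulk tissue, a site open in fewer cells cannot be told apart from one that is less open in every cell. Counted separately, with the 3 shared members in both counts, replicate 1 had a peak at 12 members (67.5% of all genes had one). Replicate 2 had one at 4 members (64.5% of all genes). No peak in either replicate was found at 45 members (78.9%), against 31.8% of all genes.

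The longer lists added members of the gamma and beta clusters. A shared peak was then present at 13 members (22.8%), against 67.7% of all genes, and 33 members had none in either replicate (57.9%, against 27.6% of all genes). Replicate 1 had a peak at 24 members (71.6% of all genes had one) and replicate 2 at 13 (68.7% of all genes). The 13 with a shared peak were both alpha C-type genes, 2 of 3 gamma C-type genes, 4 of 12 gamma A genes, 2 of 6 gamma B genes, 3 of 22 beta genes and 0 of 12 alpha alternate genes. Footprints, which are short protected stretches within open chromatin, lay within 1 kb of a start in both replicates at 12 members (21.1%), against 66.4% of all genes. Replicate 1 had a footprint at 20 members (69.6% of all genes) and replicate 2 at 12 (67.5% of all genes). A stretch at an FDR under 0.05 was found in both at 16 members (28.1%), against 68.5% of all genes. At an FDR of at most 0.001 the same count was 4, against 64.4% of all genes.

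**Figure D1:**
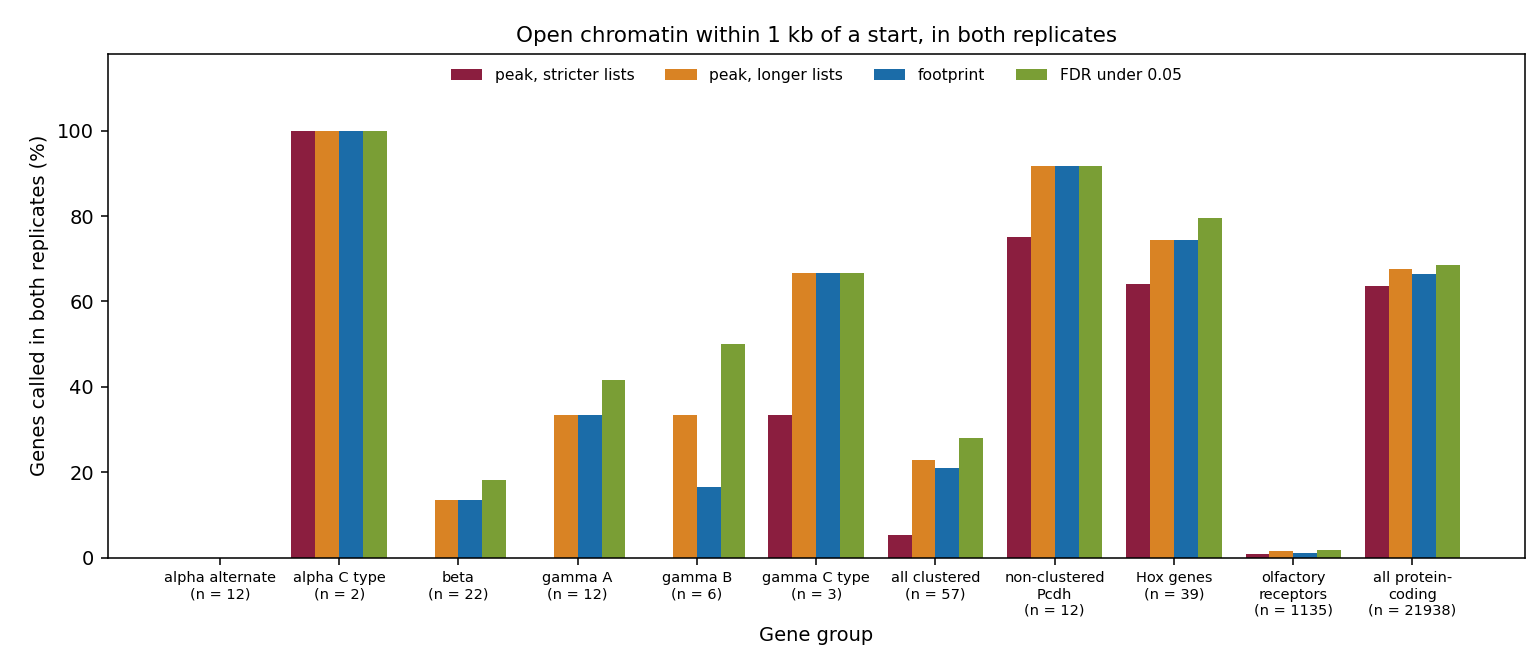
Share of genes (%, vertical axis) with a shared peak, a footprint in both replicates or a stretch at an FDR under 0.05 in both replicates within 1 kb of a start, for each protocadherin subgroup and for 4 sets of other genes (horizontal axis, number of genes below each name). The alpha alternate genes are at 0 for all 4 measures and both alpha C-type genes are called by all 4, while 63.6% to 68.5% of all protein-coding genes are called.

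Other families set the scale. The non-clustered protocadherins, related adhesion genes scattered over the genome, had a shared peak of the stricter lists at 9 of 12 genes (75%), with median heights of 3.29 in replicate 1 and 1.59 in replicate 2. The highest in replicate 1 were Pcdh17 (7.01 and 3.14), Pcdh10 (6.16 and 2.62), Pcdh8 (3.57 and 1.39) and Pcdh19 (3.44 and 1.59). In the stricter lists Pcdh12 had no peak, Pcdh20 had one in replicate 1 only (0.742) and Pcdh11x in replicate 2 only (0.397). In the longer lists 11 of the 12 (91.7%) had a shared peak. Of the Hox genes, another family in tight clusters, 25 of 39 (64.1%) had a shared peak. Of the olfactory receptor genes, a clustered family of sensory neurons, 9 of 1135 (0.79%) did, or 18 (1.59%) in the longer lists. The clustered protocadherins thus lay between the olfactory receptors and the other families, by shares that are given as descriptions without a test.

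The alpha alternate genes were the only subgroup without any signal in either replicate. Pcdha1 to Pcdha12 had 0 peaks in either list, 0 footprints and 0 bases at an FDR under 0.05 within 1 kb of their starts, in replicate 1 and in replicate 2 alike. Their starts all fell in an interval of 287.8 kb without a shared peak of the stricter lists. It was longer than 97.2% of the intervals between neighbouring shared peaks of those lists in the genome, whose median was 17.9 kb.

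The alpha C-type genes, the last variable exons before the constant exons, showed the opposite pattern. Pcdhac1 had a peak of height 0.902 in replicate 1 and 1.02 in replicate 2, at chr18:37089861-37090080 (mm10), across the start of its first exon. Pcdhac2 had heights of 0.735 in replicate 1 and 0.787 in replicate 2, at chr18:37143623-37144020. Within 1 kb of its start, a window wider than the peak, Pcdhac1 had 3 footprints in each replicate and 552 and 686 bases at an FDR under 0.05. Pcdhac2 had 4 and 7 footprints and 997 and 1029 such bases in its window. Footprints and bases given for single genes below are likewise counts within 1 kb, for bases around the most upstream start. The peaks of both genes were low but present in each replicate. With lists of equal length, or only the upper 50% of each list by height, neither gene kept a shared peak. Among the 13948 genes with a shared promoter peak, Pcdhac1 stood at percentile 4.88 of height in replicate 1 and 11.03 in replicate 2, and Pcdhac2 at 2.95 and 6.67.

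The gamma C-type gene Pcdhgc3 had the highest promoter peak of the family. Its height was 8.28 in replicate 1 and 3.10 in replicate 2, at chr18:37806121-37806500. Within 1 kb it had 1462 and 1440 bases at an FDR under 0.05 and 6 and 11 footprints, counts that are not limited to this peak. The lowest FDR in the window was 6.41e-60 in replicate 1 and 2.88e-24 in replicate 2. Against all genes with a shared peak, whose median heights were 5.95 in replicate 1 and 3.11 in replicate 2, Pcdhgc3 lay at percentiles 68.4 and 49.8. It was the only member whose height came near the median of all genes. A second shared peak nearby (1.52 and 1.26) also lay within 1 kb of the start of BC037039, and the reads there cannot be assigned to either gene. The counts of bases above include part of this second peak.

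The other gamma C-type genes differed between replicates. Pcdhgc4 had a peak of 1.42 in the stricter list of replicate 1 and of 0.967 in the longer list of replicate 2, with 1276 and 143 bases at an FDR under 0.05. Pcdhgc5 had a peak of 0.668 in the longer list of replicate 1 and none in replicate 2, with 8 footprints and 589 bases against 0 footprints and 0 bases. At both genes the signal was thus wider in replicate 1.

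The beta genes, which are read from single exons, had no shared peak of the stricter lists. Replicate 1 had such a peak at Pcdhb21 (0.702), Pcdhb17 (0.595), Pcdhb22 (0.595) and Pcdhb14 (0.588), all in the downstream part of the cluster. In replicate 2 the longer list held Pcdhb17 (0.465), Pcdhb21 (0.421) and Pcdhb14 (0.384), and Pcdhb22 had no peak and 0 bases against 271 in replicate 1. Another 6 beta genes (Pcdhb18, Pcdhb6, Pcdhb7, Pcdhb16, Pcdhb11 and Pcdhb12) had a peak in the longer list of replicate 1 only, at heights from 0.194 to 0.328. Pcdhb1, which stands apart upstream, had no peak and 13 bases at an FDR under 0.05 in replicate 1 only. The other 11 beta genes had neither a peak nor such a base: Pcdhb2 to Pcdhb5, Pcdhb8 to Pcdhb10, Pcdhb13, Pcdhb15, Pcdhb19 and Pcdhb20. All 22 starts lay in an interval of 425.66 kb without a shared peak of the stricter lists, longer than 98.4% of such intervals.

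The gamma A and gamma B genes alternate along their cluster, and signal appeared from Pcdhga5 onwards. Pcdhga6 had peaks in both stricter lists, of 0.562 in replicate 1 and 0.669 in replicate 2, but the peaks did not overlap. In replicate 1 alone there were stricter peaks at Pcdhgb6 (1.07), Pcdhga7 (0.675) and Pcdhgb5 (0.568). The replicate 2 longer list held Pcdhga7 (0.434) and Pcdhgb5 (0.378), whereas Pcdhgb6 had no replicate 2 peak and 45 bases at an FDR under 0.05, against 287 in replicate 1. The order of the genes by height thus changed between replicates at these low heights.

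Other gamma genes appeared in the longer lists only. Pcdhgb7 had 0.608 in replicate 1 and 0.533 in replicate 2, Pcdhga11 had 0.575 and 0.552, and Pcdhga5 had 0.448 and 0.421. A start of Gm26672 also lies within 1 kb of that of Pcdhga11. Pcdhga12 (0.709) and Pcdhgb4 (0.321) had a peak in replicate 1 only. The 9 genes Pcdhga1 to Pcdhga4, Pcdhga8 to Pcdhga10, Pcdhgb1 and Pcdhgb2 had no peak and no base at an FDR under 0.05 in either replicate. The 18 starts from Pcdhga1 to Pcdhga12 lay in an interval of 150.4 kb without a shared peak of the stricter lists. It was longer than 93.6% of such intervals, but shared peaks of the longer lists, such as those of Pcdhgb7, Pcdhga11 and Pcdhga5, lay inside it.

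**Figure D2:**
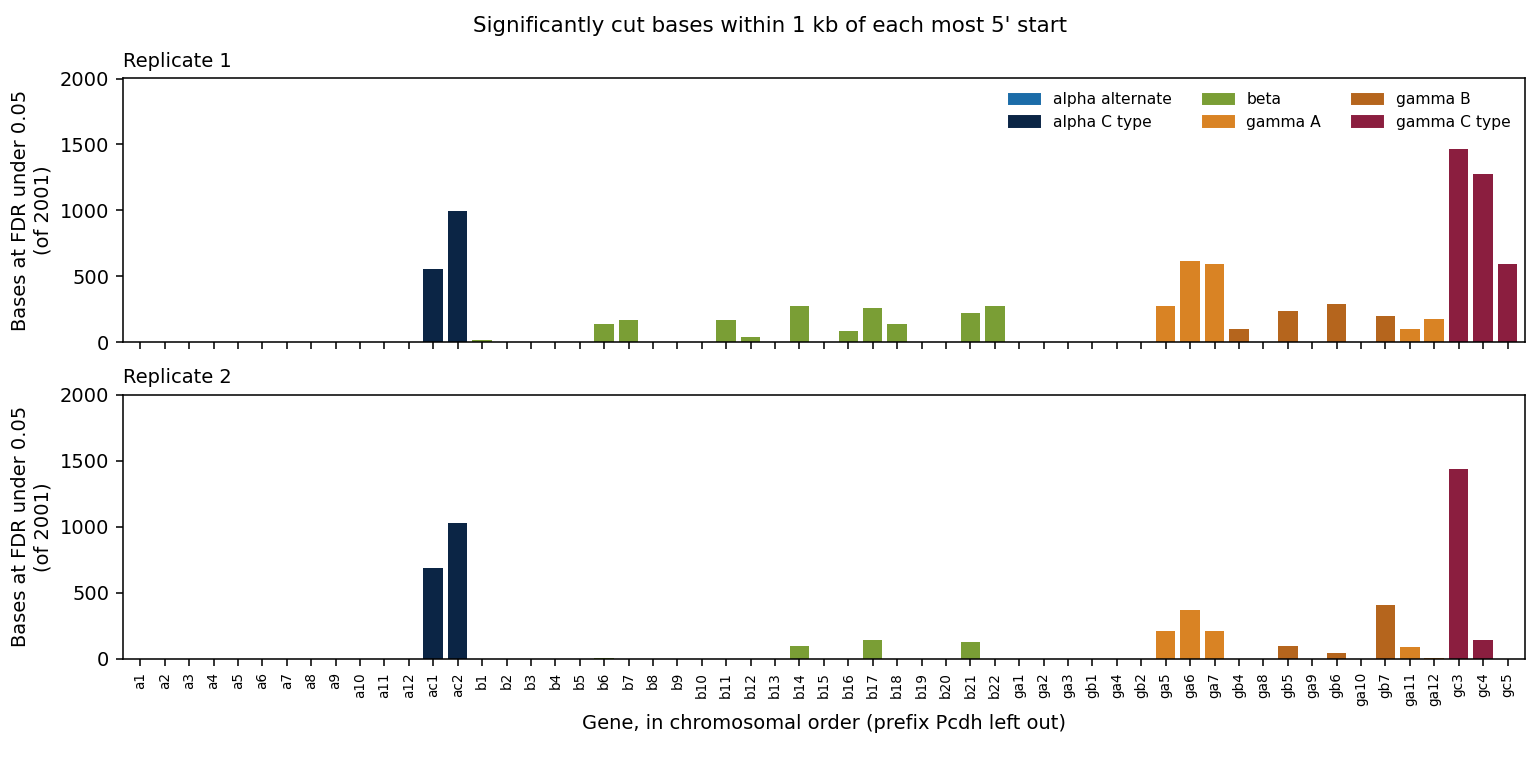
Bases at an FDR under 0.05 within 1 kb of the most upstream start of each of the 57 genes (vertical axis, number of bases), in chromosomal order along the horizontal axis, with replicate 1 above and replicate 2 below and bars coloured by subgroup. The alpha alternate genes are at 0 in both replicates, Pcdhgc3 reaches 1462 and 1440 bases, and the beta genes appear mainly in replicate 1.

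Counted in bases, 22 members had more sequence at an FDR under 0.05 in replicate 1, 3 had more in replicate 2 (Pcdhac1, Pcdhac2 and Pcdhgb7) and 32 had 0 in both. The median over the members was 0 bases in each replicate, against 723 in replicate 1 and 702 in replicate 2 over all genes. In the whole files, replicate 1 had 1.51 times as many such bases as replicate 2. Within the alpha cluster that ratio was 1.06 (3194 and 3002 bases), within the beta cluster 4.91 (1778 and 362) and within the gamma cluster 2.17 (10226 and 4714). The beta bases were thus mostly from replicate 1. The list lengths of the samples differ in the same direction, and their part in this was not tested.

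At the 3 members with a shared peak, the heights of the replicates stood in different ratios. The log2 ratio of replicate 1 over replicate 2 was -0.17 at Pcdhac1, -0.10 at Pcdhac2 and 1.42 at Pcdhgc3, with counting errors of 0.17, 0.19 and 0.08 if each step were 1 tag. Over all 13948 genes with a shared peak the median was 0.92, with quartiles of 0.63 and 1.17, and 96.9% were higher in replicate 1. Pcdhac1 and Pcdhac2, whose peaks were no higher in replicate 1, stood at percentiles 1.36 and 2.03 of the ratio, and Pcdhgc3 at percentile 92.6. Low peaks had lower ratios in general: the median was 0.30 in the lowest decile of height, which holds both alpha C-type genes. With 2 samples of 1 group these ratios have no error between animals.

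**Figure D3:**
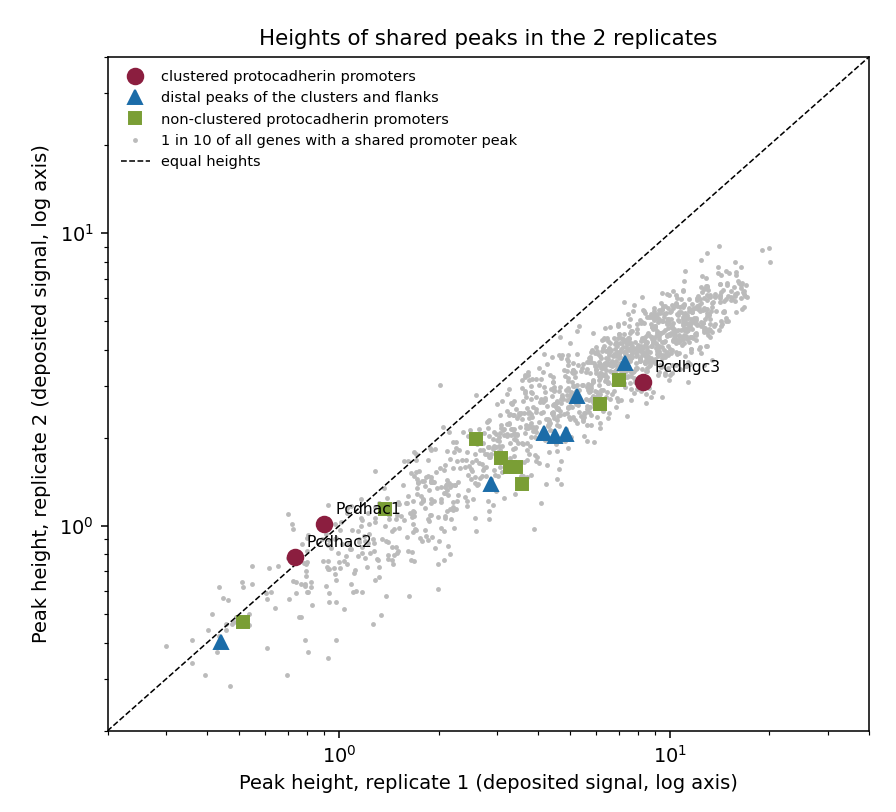
Peak height in replicate 1 (horizontal axis) and replicate 2 (vertical axis), both as deposited signal on log axes, for shared peaks at clustered protocadherin promoters, at distal sites of the clusters and flanks, at non-clustered protocadherin promoters and at 1 in 10 of all genes with a shared promoter peak. Pcdhac1 and Pcdhac2 lie just above the line of equal heights, while Pcdhgc3 (8.28 and 3.10) lies below it with most genes.

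For members with a peak, the highest peak within 1 kb was measured to the nearest of the gene's annotated starts. Of the 12 members with a stricter peak in replicate 1, 9 had the peak centre within 100 bp upstream of an annotated start, and the centres ranged from -65 to 388 bp with a median of -37.5 bp. The exceptions were Pcdhga6 (62 bp), Pcdhb17 (141 bp) and Pcdhac2 (388 bp), all downstream. In replicate 2 the Pcdhga6 peak was centred 323 bp downstream. Among the 9, the peaks of Pcdhgc4 and Pcdhb22 lay near a further start, and were centred 282 and 423 bp downstream of the most upstream one.

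CpG content differed between the subgroups without a shared stricter peak. Within 500 bp of the start, the observed over expected CpG ratio had a median of 0.564 over the members, against 0.552 over all genes. It was 0.684 over the alpha alternate genes, with a range from 0.569 to 0.749, 0.588 over the gamma A genes, 0.650 over the gamma B genes and 0.378 over the beta genes, which lay below all genes. Of the 29 members in the upper 5 deciles of this ratio, 3 had a shared stricter peak. Over all genes, 88.3% had one in decile 6, 93.8% in decile 7 and 96.4% in decile 8. Applying each decile's share over all genes to the members' deciles gave 41.7 genes (73.1%), where 3 were observed, and 44.8 genes in the longer lists, where 13 were observed. GC content ran lower in the members, with a median of 44.9% against 54.7% over all genes, and its part in the difference was not tested. The families compared above differed in CpG ratio too. Its median was 0.106 over the olfactory receptor genes, 0.665 over the non-clustered protocadherins and 0.678 over the Hox genes, and their shares were not adjusted for it.

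**Figure D4:**
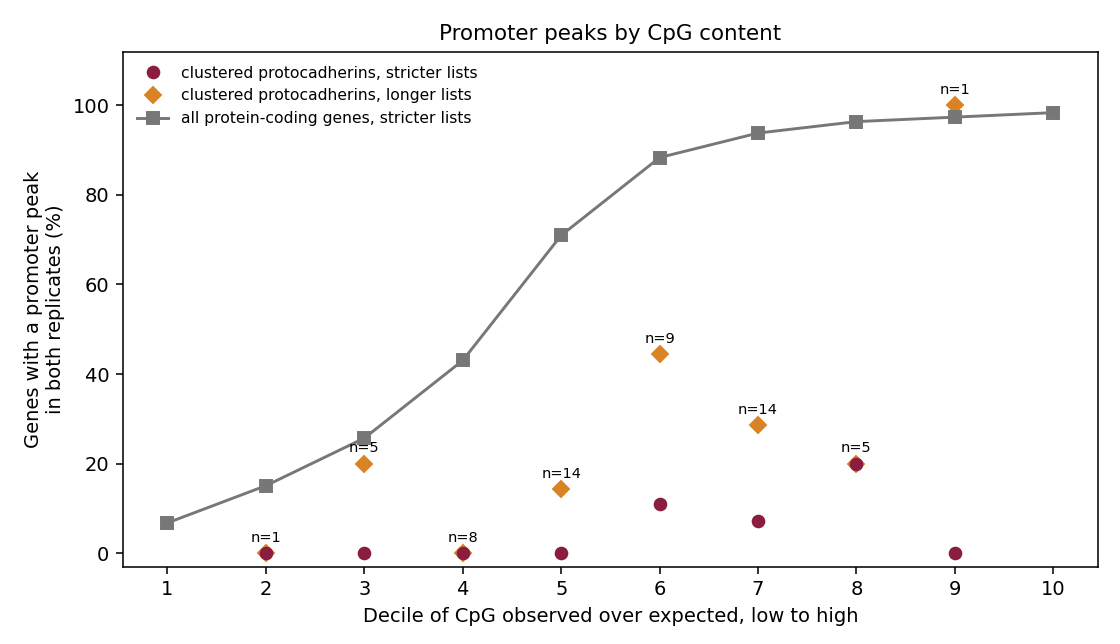
Share of genes with a promoter peak in both replicates (%, vertical axis) by decile of the observed over expected CpG ratio (horizontal axis, low to high), for the clustered protocadherins in the stricter and the longer lists and for all protein-coding genes in the stricter lists, with the number of members above each decile. In deciles 6 to 8, 1 member per decile has a shared stricter peak, against 88.3% to 96.4% of all genes.

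The members resemble each other in sequence, which limits where short reads can be placed. The share of 32-base words within 1 kb of the start that recur elsewhere in the genome had a median of 6.14% over the members and a range from 0 to 26.3%. Among the alpha alternate genes it ranged from 7.36% to 26.3% with a median of 11.4%. It had a median of 1.07% over the 24 members with a peak of the longer lists and 8.38% over the 33 without. The 33 include all alpha alternate genes. The order differed between subgroups. Gamma A genes with a peak had 0.05% to 2.94%, and those without one had 0.10% to 11.4%. Among the beta genes the ranges were 0 to 19.3% with a peak and 0 to 21.4% without. Among the gamma B genes the order was the reverse: Pcdhgb4, Pcdhgb5, Pcdhgb6 and Pcdhgb7, with a peak, had 10% to 18.7%, and Pcdhgb1 and Pcdhgb2, without one, had 0%. The share was not computed over all genes. Recurring words covered a minority of each window, and 7 of the 33 had none. Their part in the result was not tested.

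Across the 3 clusters and 100 kb on each side (chr18:36830184-37941873, 1111.69 kb), the stricter lists gave 16 shared peaks, or 14.4 per Mb, against 16.4 on chromosome 18 and 17.7 in the genome. In the longer lists the density was 30.6 per Mb, against 27.2 and 28.4. With its flanks, the locus thus lay below both densities in the stricter lists and above both in the longer lists, and the peaks were unevenly placed. In the stricter lists the downstream flank had 50 per Mb and the upstream flank 0. The alpha cluster had 15.5 per Mb, the beta cluster 0 and the gamma cluster 16.7. Between the alpha and beta clusters there were 25.9 per Mb, and between the beta and gamma clusters 14.6. Of the 16, 4 lay at member promoters, 5 at starts of other genes and 7 were distal, with no annotated start within 1 kb. The beta cluster held 0, the alpha cluster 4, the gamma cluster 3 and the 100 kb beyond the gamma cluster 5. The highest at other genes were Diaph1 (11.1 in replicate 1 and 5.38 in replicate 2), whose product organises actin and which lies downstream of the gamma cluster, and Taf7 (7.81 and 2.91), a transcription factor gene between the beta and gamma clusters. Diaph1 exceeded every clustered protocadherin promoter in both replicates, and Taf7 all but Pcdhgc3.

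**Figure D5:**
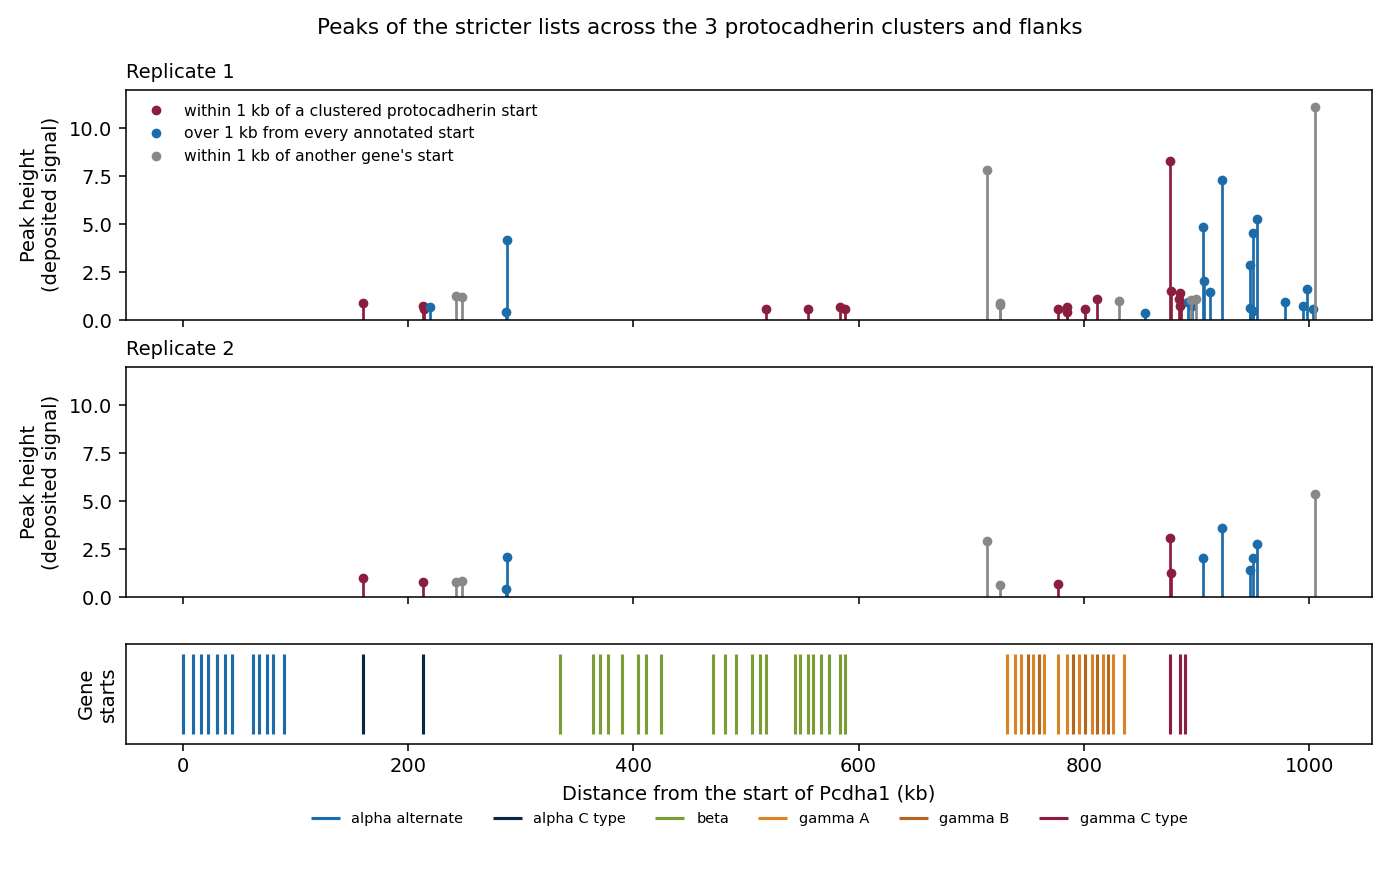
Peaks of the stricter lists by distance from the start of Pcdha1 (kb, horizontal axis) with peak height as deposited signal (vertical axis), replicate 1 above replicate 2, and the starts of the 57 genes below, coloured by subgroup. The alpha alternate starts carry no peak, the beta starts carry low peaks in replicate 1 only, and the highest distal peaks lie after the last alpha exon and around and beyond the end of the gamma cluster.

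Of the 7 distal sites, 6 were higher in each replicate than every member promoter but Pcdhgc3. The highest, at chr18:37852181-37852400 in an intron of Diaph1, had 7.30 in replicate 1 and 3.61 in replicate 2 and lay 10.4 kb beyond the last gamma exon. It stood at percentiles 98.8 and 98.5 of the 26622 shared distal peaks of the genome, whose median heights were 1.497 and 0.874. Further sites in Diaph1 introns lay 35.6, 38.5 and 41.8 kb beyond that exon. Their heights were 2.89, 4.51 and 5.24 in replicate 1, against 1.39, 2.03 and 2.78 in replicate 2.

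Within and beside the clusters there were 3 more shared distal sites. At chr18:37835381-37835800, between the second and the third constant exon of the gamma cluster, the height was 4.87 in replicate 1 and 2.06 in replicate 2. At chr18:37218241-37218460, 30.7 kb after the last alpha exon, it was 4.16 and 2.08. A weaker site just before it, at chr18:37217201-37217550, had 0.441 and 0.403. The site after the alpha cluster thus exceeded both alpha C-type promoters, whereas the weaker one beside it was below them, in each replicate.

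In the stricter lists, other distal peaks were found in replicate 1 alone. The highest were at chr18:37836721-37836800 (2.03), chr18:37927901-37928100 (1.62), chr18:37842101-37842207 (1.48) and chr18:37822588-37822734 (0.949). The first 3 had a replicate 2 peak in the longer lists, at 1.17, 0.558 and 0.954. The log2 ratio of replicate 1 over replicate 2 had a median of 1.02 over the 7 shared distal sites, against 0.70 over all shared distal peaks, with quartiles of 0.40 and 1.04. All but the weakest of these sites stood at percentiles 85.0 to 98.8 of height in replicate 1 among shared distal peaks. The ratio was not adjusted for height.

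The constant exons themselves showed little signal. In the alpha cluster, constant exons 1 and 2 had 0 bases at an FDR under 0.05 in either replicate and exon 3 had 108 in replicate 1 and 0 in replicate 2. In the gamma cluster, exon 1 had 59 and 0, exon 2 had 0 and 0, and exon 3 had 124 and 0. A peak of replicate 1 only (1.06) covered gamma constant exon 1, within 1 kb of a start of Gm38182.

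CTCF binding sites are a known feature of these clusters, so the CTCF core consensus, 12 bases of which 8 are defined, was searched on both strands. Within 250 bp of a start, 0 of 57 members held a match, against 3.74% of all genes. Within 500 bp, Pcdhac2 alone did, against 7.09%. Within 1 kb, 9 members did (15.8%), near the 13.3% of all genes. Of these 9, 7 were alpha alternate genes (Pcdha1, Pcdha4, Pcdha6, Pcdha7, Pcdha8, Pcdha9 and Pcdha12). The matches of these 7 genes were all on the plus strand, 543 to 587 bp after the start with a median of 566 bp. None lay in a peak or footprint of either replicate. A match to the consensus is a description and not a binding site, and a missing match says only that these bases are not in the window.

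In the clusters and flanks there were 69 matches, 29 on the plus and 40 on the minus strand. In a stricter peak of replicate 1 lay 2 of them, and in one of both replicates 1. That match, on the minus strand, was in the weaker site after the alpha cluster and inside a footprint of both replicates. A minus-strand match at position 37883728, just past the end of the distal peak 41.8 kb beyond the gamma cluster, also lay in a footprint of both replicates.

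The proteins that act on the clusters had open promoters throughout. All 12 listed regulators had a shared peak: the highest in replicate 1 were the cohesin genes Stag1 (15.98 in replicate 1 and 7.33 in replicate 2) and Smc3 (14.8 and 5.597), the cohesin release factor Wapl (10.3 and 4.76) and the cohesin subunit Rad21 (10.1 and 3.34). Ctcf had 7.04 and 3.69, and Smchd1, a silencing factor, had 8.64 and 4.16. Of 10 genes for protein partners, 9 had a shared peak, the highest in replicate 1 being the protease Adam10 (16.4 and 5.94), Ctnnb1 for beta-catenin (13.3 and 5.53), Pdcd10 (11.6 and 4.41) and the kinase Fyn (8.82 and 3.34). The kinase gene Ptk2b had a peak in replicate 1 only (0.468). These lists, like the marker lists, are descriptions of the samples, and 63.6% of all genes had such a peak. The regulators had a median observed over expected CpG ratio of 0.907. That value falls in the highest decile of the ratio, where 98.4% of all genes had such a peak.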

How the data were processed

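DNase-seq of mouse adrenal gland gave 2 samples of 1 group, replicates 1 and 2 per the labels, on the mouse build mm10. Which aligner and which callers of peaks and footprints the authors used is not given in the sources used here. Per the deposited file listing, each file was made from 1 sample without pooling. The deposited peak heights are a signal the authors normalised, whole multiples of 1 step per sample (0.00668 in replicate 1 and 0.00620 in replicate 2) within 5% of a step. The deposited FDR values are adjusted p-values per stretch of bases, listed under 0.05, and each deposited footprint carries the p-value 0.01, taken as its calling threshold. Reads of CAST/EiJ alleles were placed on mm10.

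Starts came from GENCODE M21. Shared peaks were merged regions with peaks of both replicates overlapping by at least 1 bp, with the highest height per replicate, and promoters reached 1 kb to either side of any start. Counts were set beside all protein-coding genes. No test was made, since there is 1 group, and no p-value was computed. Values were printed for each member with a stricter-list peak, up to 4 highest and 3 absent genes of other lists, and the 10 highest distal peaks, and the other members, peaks and genes named were chosen after their values were seen. A list of Schwann and sustentacular cell markers is not reported here. The members and lists were chosen with earlier results of these data known. Scripts used Python 3.11.15, numpy 2.4.6, pandas 2.3.3, numba 0.67.0 and bedtools 2.31.1, and were tested on simulated data.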

Additional observations from a re-analysis of the deposited data

How the results depend on the processing

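The count of 3 members with a shared promoter peak held with windows of 500 bp and 2 kb and with the most upstream start alone. It was 13 in the longer lists and 1 with lists of equal length or with the higher part of each list (the upper 50% by height), where Pcdhac1 and Pcdhac2 were lost and Pcdhgc3 remained. Leaving out a replicate gave 4 to 12. The mean of both replicates' median heights was 0.959, against 0.571 in the longer lists and 5.69 with equal lists or the higher part, and 0.689 to 0.902 with a replicate left out. The 12 members with a footprint in both replicates held under each other window and overlap, with 12 to 20 when a replicate was left out. The 16 with a stretch at an FDR under 0.05 became 4 at 0.001 or below, and 16 to 25 without a replicate. The 7 shared distal peaks became 12 in the longer lists, and 7 to 19 without a replicate. The median log2 ratio at the 3 members was -1.02 relative to all genes, -0.40 relative to genes of the same height decile and -0.10 without centring. In the longer lists the median was -0.54 relative to all genes, but it was taken over the 13 members with a shared peak there. It is therefore not a check on the value of the 3. Members with a CTCF consensus match numbered 0 within 250 bp, 1 within 500 bp, 26 with 1 mismatch allowed (48.3% of all genes) and 9 within 1 kb, a window chosen after seeing the data. The cause of these changes was not tested. No paired analysis was possible because there is 1 group. The number of reads behind each height is unknown, so a promoter without a peak is one where none was detectable at this depth.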
